A study of Mus musculus with 24 samples.

Results

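The comparison described here set BV2 cells treated with lipopolysaccharide (LPS) against control BV2 cells, gene by gene. BV2 is an immortalised mouse microglial line, so all libraries come from 1 line, and the series also holds the vesicles those cells shed. The LPS cells received LPS at 100 ng/mL for 72 h, and the control cells are labelled as controls with no agent named. Cells given IL-10 or TGF-β, each at 50 ng/mL for 72 h, served as reference groups for direct contrasts. Members were the 3 LPS cell libraries and 3 control cell libraries, 6 of the 24 samples in the series, with all 13290 genes of their count table. No deletion or transgene is named for any group.

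Microglia are the resident macrophages of the brain. They sense LPS, a component of the outer membrane of Gram-negative bacteria, through a surface complex of CD14, MD-2 and TLR4. The adaptors MyD88 and TRIF carry the signal to NF-κB, the AP-1 factors and the interferon regulatory factors, which drive cytokines, enzymes and also the inhibitors that later restrain the same pathway.

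The 6 libraries held 26.91, 31.9 and 29.65 M counts in controls and 42.13, 28.65 and 32.77 M in LPS cells, so that 3 counts, the limit allowed by a count of 0, equal 0.0712 to 0.111 CPM (counts scaled to the library total). Across genes, which are not independent replicates, log values of libraries of the same group correlated at r = 0.9949 or more, and of different groups at 0.9593 or less. Macrophage genes were present in both groups: the receptor Csf1r read 856 ± 33.3 CPM in controls and 1420.5 ± 107 in LPS cells (mean ± SD, n = 3 libraries, as throughout), and the lineage factor Spi1 399.7 ± 3.35 and 376 ± 35.7. The microglial markers P2ry12, Siglech, Sall1 and Fcrls are not among the listed genes, and Cx3cr1, chosen after its values were seen, read 0.0829 ± 0.0863 and 0.0115 ± 0.0199 CPM, at or below the limit of detection. Of the 10 neuron markers, 4 were listed and none passed the filter on low values. Of 10 astrocyte markers 5 were listed, without Gfap, and summed to 299 to 316 CPM in controls and 225 to 239 in LPS cells; 3 were tested, of which Slc1a2 and Aldh1l1 were higher and Aldoc, which held most of the sum, lower. The Slc1a2 call was lost without control library 2 (edgeR adjusted p = 0.0558) and that of Aldh1l1 without LPS library 3 (adjusted p = 0.0759). The 2 listed oligodendrocyte markers summed to 37.8 to 43.6 CPM in controls and 44.4 to 50.0 in LPS cells, and neither was called. Of T, B and NK cell markers 2 were listed, without Cd3e, at 1.60 to 2.79 CPM in controls and 0.140 to 0.499 in LPS cells, and Cd4, the 1 tested, was lower. The 5 listed neutrophil markers summed to 35.1 to 37.9 CPM in controls and 25.6 to 32.4 in LPS cells, where the fall was in Cxcr2 (19.9 ± 1.35 to 0.377 ± 0.0906 CPM), while Camp and S100a8 were higher, S100a8 at 0.977 ± 0.348 and 4.89 ± 1.76 CPM. The 4 listed endothelial and fibroblast markers summed to 0.0313 to 0.446 CPM in controls and 2.32 to 3.59 in LPS cells, and Pecam1 and Pdgfrb, the 2 tested, were higher. These markers were named after their values were seen, and the part of such cells in any result was not tested. These are bulk RNA values, in which fewer cells of a type and less RNA per cell cannot be told apart. Nothing in the labels ties the libraries to separate cultures, so the p-values describe no more than how these libraries vary, and that variation may be technical.

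Of the 13290 genes, 11951 passed the filter on low counts, and 56.1% of those tested differed between LPS and control cells at an adjusted p under 0.05 in edgeR's quasi-likelihood test. LPS cells were higher in 3421 genes (28.6%) and lower in 3285 (27.5%), and the median log2 fold change of all tested genes was 0.007. Many calls were small: 3128 of them were under 1.5-fold, while 1003 genes rose and 825 fell by more than 2-fold. Beyond 8-fold the split was uneven, with 209 genes higher and 65 lower. These counts use fitted folds, which are no bound for genes with no count in any library of a group. In 7457 of the tested genes (62.4%) the LPS and control libraries did not overlap. A lack of overlap given for a single gene below is read against that share. The genes called higher, which were chosen by this same contrast, held 26.8%, 27.2% and 26.5% of all counts in the control libraries and 43.7%, 44.2% and 43.9% in the LPS libraries. Those called lower held 50.6%, 50.0% and 50.9% in controls and 32.3%, 32.2% and 32.6% after LPS. Counts for gene lists are given over their tested members and read against the 28.6% and 27.5%; a gene seen only in LPS cells could pass the filter through those libraries alone.

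**Figure D1:**
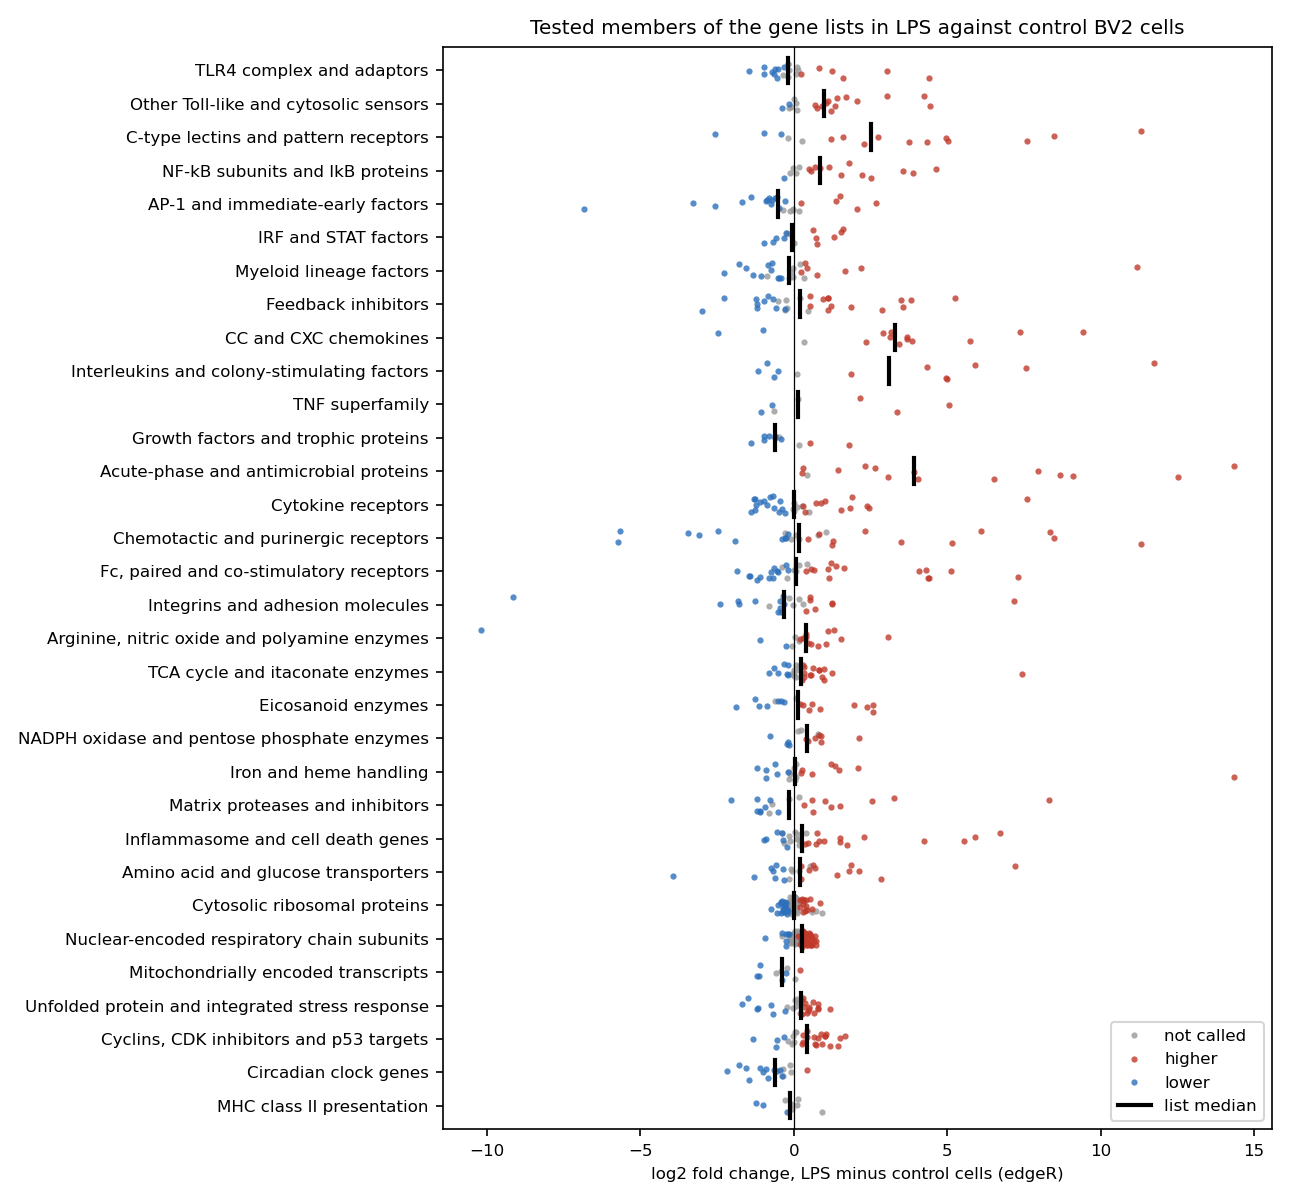
Each point is a tested member of a gene list, placed by its log2 fold change (LPS minus control cells, x axis) and coloured by the edgeR call at an adjusted p of 0.05; black bars are list medians, and genes with no control count have fitted values that are no bound. The acute-phase list has its median at 3.92 and the chemokines at 3.31, while ribosomal proteins stay close to 0 and circadian genes sit at -0.63.

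As shares of the libraries, the largest gains were not all in immune mediators. The peroxide-reducing enzyme Prdx1 read 3160.4, 3092 and 3008 CPM in the control libraries and 9205, 8735 and 9182 CPM in the LPS libraries. Ferritin heavy chain, Fth1, was already abundant at 26376 ± 1047 CPM and reached 31017 ± 433. Saa3, an acute-phase protein, went from 8.09, 6.98 and 7.03 CPM in the control libraries to 3808, 3995 and 4148 in the LPS libraries. All 3 had groups that did not overlap, as had 62.4% of all tested genes, yet their folds were 2.93, 1.18 and 542. Per kilobase of exon, LPS cells held 2971 CPM of Prdx1, 1529 of Saa3, 1281 of Acod1 and 505 of Cybb, against 8941 of Fth1. The length used merges all annotated exons of a gene and can exceed that of 1 transcript, so ranks between genes are rough. The macrophage surface protein Adgre1 (F4/80) rose 3.65-fold to 2408 ± 19.4 CPM, and cathepsin D, Ctsd, 1.38-fold to 7536 ± 632. The largest losses in CPM included secreted and lysosomal proteins. The lysosomal glycoprotein Gpnmb fell from 45854, 43136 and 47357 CPM in control libraries to 24988, 25464 and 27497 after LPS, with no overlap. Apolipoprotein E, Apoe, dropped 4.98-fold, the lectin Lgals3 3.39-fold, the actin-severing protein Gsn 4.54-fold and the protease Ctsk 1.93-fold. Osteopontin, Spp1, fell from 11125 ± 297 to 5662 ± 326 CPM.

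The upstream sequences of raised genes were searched for the letters that NF-κB, interferon-activated and AP-1 factors are known to recognise, because these factors act below TLR4. RefSeq gives 32851 promoters (GRCm38.p6), and 9096 of the 11951 tested genes matched by symbol, with 11645 promoters. In the 250 bases before the start, on both strands, the κB letters GGGANNTTCC occurred in 1.21% of all promoters, 1.25% of those of tested genes and 10 of 174 (5.75%) of those of genes raised more than 8-fold. The interferon response element, GAAANNGAAA, occurred in 2.98% of all promoters, 2.67% of those of tested genes and 29 of 174 (16.7%) of those of genes raised more than 8-fold. Of the promoters of genes lowered more than 2-fold, 1.03% held the κB letters and 1.67% the interferon element, and of those of uncalled genes 1.19% and 2.15%. TGANTCA, the AP-1 letters, stood in 6.75% of all promoters, 4.53% of those of tested genes, 15.5% of those raised more than 8-fold, 6.69% of those lowered more than 2-fold and 3.85% of uncalled ones. Genes with several promoters count once for each, and the fold classes use fitted values, also for genes with no control count. A match is a description and not a site.

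Shown here are named raised genes with a match, taken in order of fitted log2 fold change. For genes with no control count, such as Il6, Hpn and Gbp5, that value is no bound, so their rank is uncertain. Sequences are read 5′ to 3′ on the gene's strand, with the κB letters or, where stated, the interferon element in capitals. A capital run longer than the motif holds overlapping matches on both strands. Where the window meets an annotated exon, only 30 bases around the match are shown.
Il6, chr5:30012864-30013113, + strand, κB: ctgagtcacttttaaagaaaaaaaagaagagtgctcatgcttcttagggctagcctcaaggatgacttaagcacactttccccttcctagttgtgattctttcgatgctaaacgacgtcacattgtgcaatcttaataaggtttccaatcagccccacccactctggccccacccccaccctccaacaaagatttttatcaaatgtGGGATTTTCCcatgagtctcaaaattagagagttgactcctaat
Cxcl10, chr5:92348890-92349139, - strand, κB: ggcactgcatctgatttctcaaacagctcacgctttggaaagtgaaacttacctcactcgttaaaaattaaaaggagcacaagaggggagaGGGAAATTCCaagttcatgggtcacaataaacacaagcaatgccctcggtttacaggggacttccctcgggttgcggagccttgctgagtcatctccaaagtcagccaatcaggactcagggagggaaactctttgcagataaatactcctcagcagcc
Cxcl2, chr5:90903793-90903822, + strand, κB: ctgagctcaGGGAATTTCCCtggtccccgg
Hpn, chr7:31111216-31111245, - strand, κB: ctcttcctgGGGAATTTCCCcatttccttc
Gbp5, chr3:142496847-142496876, + strand, κB: ggagaggaaaGGAAATTCCCagggctggcc
Gbp5, chr3:142496759-142496788, + strand, interferon element: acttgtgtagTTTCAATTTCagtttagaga
Saa3, chr7:46715782-46715811, - strand, interferon element: gttatcttctGAAAGAGAAAttatgggtaa
The first base of the κB match lay 44 bases before the start in Il6, 159 in Cxcl10, 97 in Cxcl2, 239 in Hpn and 77 in Gbp5. Gbp5 and Cxcl10 held both the κB letters and an interferon element. The chemokine Cxcl10 read 0.0763, 0.512 and 0.276 CPM in the control libraries and 44.0, 51.5 and 53.8 CPM in the LPS libraries. Cxcl2, a neutrophil chemokine, had 1 count in all control libraries together and 8.19, 12.3 and 11.1 CPM in the LPS libraries. Il6, the cytokine, had no count in any control library and stayed scarce after LPS at 0.773, 0.585 and 0.814 CPM, at least 6.92-fold higher than a floor of 3 counts per control library. The protease Hpn and the guanylate-binding protein Gbp5 also had no control count and reached 2.36 ± 0.278 and 1.95 ± 0.774 CPM, at least 22.6-fold and 18.6-fold higher. No count in any control library and a mean of at least 50 counts in LPS cells were found in 17 genes, not including Il6. The adhesion molecule Mcam was the 1 gene that showed the reverse. The colony-stimulating factor Csf3 was among the 17, with 7.55, 17.6 and 14.4 CPM in the LPS libraries, as were complement factor B, Cfb, at 9.74 ± 1.00 CPM and the transcription factor Spic at 9.10 ± 0.824.

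The sensor itself was lower after LPS. Tlr4 read 63.2, 54.3 and 62.0 CPM in the control libraries and 46.5, 33.7 and 42.5 CPM in the LPS libraries, a 1.46-fold fall (adjusted p = 3.12e-04), and the groups did not overlap. Its co-receptor Cd14 moved the other way, from 238, 206 and 231 CPM in control libraries to 458, 569 and 583 in LPS libraries. MD-2, encoded by Ly96, read 9.33 ± 1.03 and 8.20 ± 0.836 CPM and did not pass the test (log2 fold change -0.18, SE 0.16). The 23 tested genes of the TLR4 complex and its adaptors split into 6 higher and 9 lower, with a median log2 fold change of -0.19. Myd88, the adaptor of the early arm, rose 1.76-fold, whereas Ticam1, which encodes TRIF, fell 1.64-fold. Ticam2, the bridge between TLR4 and TRIF, rose from 9.24 ± 1.20 to 27.7 ± 2.93 CPM. The IRAK kinases diverged: Irak1 fell 1.58-fold and Irak2 1.95-fold. Irak3, the kinase-dead member that holds back signalling, read 7.41, 6.15 and 6.41 CPM in the control libraries and 55.0, 56.0 and 51.3 CPM in the LPS libraries, a rise of 8.15-fold. The ubiquitin ligase Traf6, on which the MyD88 arm converges, fell 2.74-fold from 85.1 ± 6.92 to 31.0 ± 3.85 CPM. The LPS-binding protein Lbp read 0.840, 0.0961 and 0.310 CPM in the control libraries and 8.19, 8.46 and 8.72 after LPS, and its control libraries held 3 to 22 counts.

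Sensors for other microbial signals mostly rose. Of 20 Toll-like and cytosolic sensors 13 were higher and 2 lower (median 0.98). Tlr2, the lipopeptide receptor, read 51.1, 49.4 and 55.1 CPM in the control libraries and 416, 435 and 419 CPM in the LPS libraries, so it rose 8.16-fold where Tlr4 fell. The nucleic-acid sensor Zbp1 rose 18.9-fold, the RNA helicase Ddx58 (RIG-I) 3.22-fold and the peptidoglycan sensor Nod2 4.13-fold. Tlr7, a single-stranded RNA sensor, fell 1.31-fold. Among 16 C-type lectins and pattern receptors, 11 were higher and 3 lower, with a median of 2.52. Clec4e (Mincle), a receptor for mycobacterial glycolipid, read 13.1, 14.0 and 12.8 CPM in the control libraries and 472, 346 and 431 CPM in the LPS libraries, a 31.2-fold rise. The scavenger receptor Colec12 fell 1.98-fold to 412 ± 27.7 CPM. Genes of the Clec4a, Ccl, Pilr, Bcl2a1 and Gbp families have close copies that can share reads, so single values there are uncertain.

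Genes of NF-κB proteins and their regulators were mostly higher after LPS, and those of immediate-early factors mostly lower. Of 17 NF-κB and IκB genes, 12 were higher and 1 lower (median 0.85), and of 24 AP-1 and immediate-early genes 5 were higher and 14 lower (median -0.52). The inhibitor Nfkbia read 33.2, 30.0 and 31.8 CPM in the control libraries and 432, 482 and 477 CPM in the LPS libraries, a 14.7-fold rise. Nfkbiz, a nuclear co-activator of the IκB family, rose 24.8-fold from 3.27 ± 0.817 to 81.8 ± 4.39 CPM, the kinase Ikbke 11.7-fold and the co-regulator Bcl3 4.63-fold. Subunit genes moved less: Nfkb1 rose 1.48-fold, and Rela fell 1.26-fold to 132 ± 3.18 CPM. Jun, the core AP-1 subunit, read 337, 303 and 336 CPM in the control libraries and 93.6, 110.0 and 98.7 CPM in the LPS libraries, a 3.23-fold fall with no overlap. Egr2 fell 9.85-fold, the zinc-finger factor Klf4 5.89-fold, Jund 2.61-fold and Myc 1.86-fold. Atf3, a stress-induced repressor, fell 1.69-fold from 351 ± 28.9 to 208 ± 5.97 CPM. Against that direction, Batf rose 6.33-fold, Maff 2.82-fold and Ier3, which NF-κB induces, 2.60-fold.

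**Figure D2:**
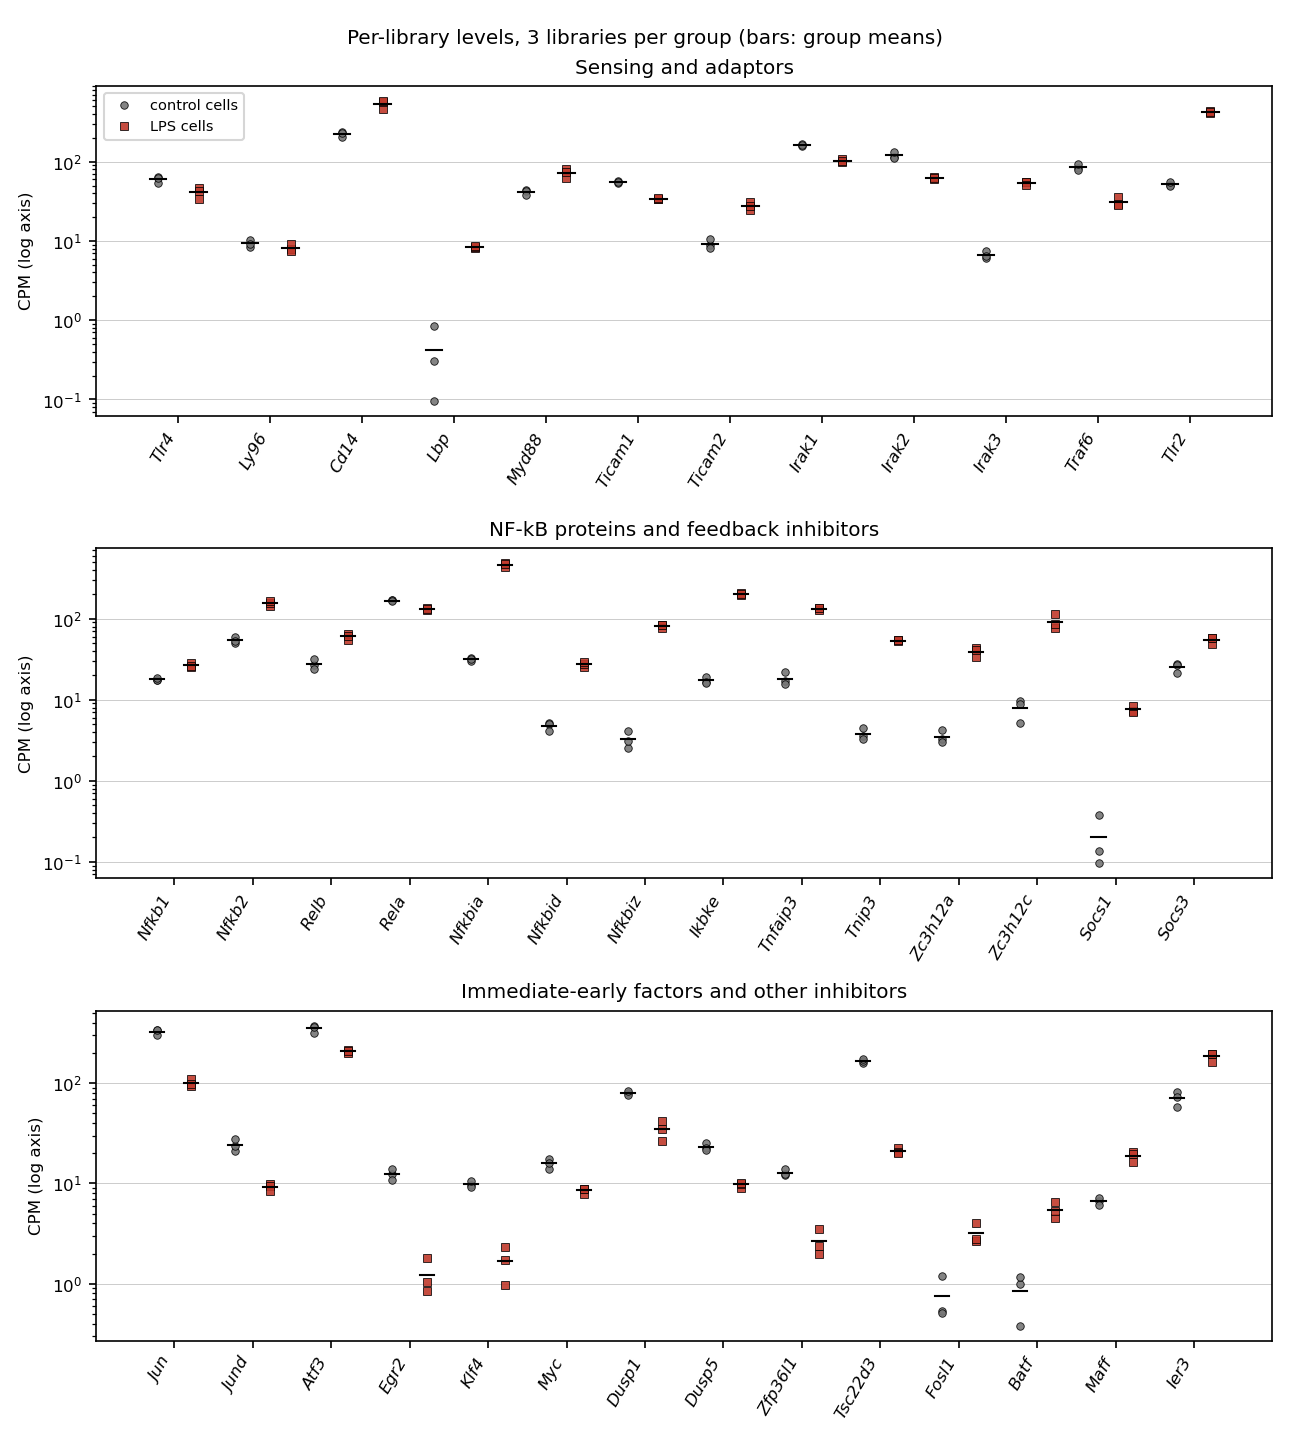
Per-library CPM on a log axis for genes of LPS sensing (top), NF-κB proteins with feedback inhibitors (middle) and immediate-early factors with other inhibitors (bottom), 3 control (circles) and 3 LPS libraries (squares), with bars at group means. Nfkbia, Tnfaip3, Zc3h12a and Irak3 sit higher in every LPS library, and Jun, Egr2, Tsc22d3 and Traf6 lower in every one.

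Inhibitors of the pathway did not move as a block. Of 29 tested feedback inhibitors, 13 were higher and 10 lower, a median of 0.19. The deubiquitinating enzyme Tnfaip3 (A20) read 16.9, 15.7 and 21.7 CPM in the control libraries and 137, 126 and 136 CPM in the LPS libraries, a 7.37-fold rise. Its partner Tnip3 rose 14.2-fold, and the RNases Zc3h12a (Regnase-1) and Zc3h12c, which cut cytokine transcripts, rose 11.1-fold and 11.7-fold. Socs1, a brake on cytokine receptors, read 0.382, 0.0961 and 0.138 CPM in the control libraries and 7.32, 7.15 and 8.32 CPM in the LPS libraries. Socs3, of the same family, rose 2.17-fold. Glucocorticoid-induced Tsc22d3 (GILZ) moved the other way and read 159, 167 and 175 CPM in the control libraries and 22.5, 20.7 and 20.1 CPM in the LPS libraries, a 7.88-fold fall. The phosphatases Dusp1 and Dusp5, which switch off MAP kinases, fell 2.32-fold and 2.35-fold, and Zfp36l1, a protein that destabilises cytokine mRNA, fell 4.80-fold.

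Interferon and lineage factors were divided. Of 14 IRF and STAT genes, 6 were higher and 5 lower (median -0.07). Irf7 rose 2.89-fold from 77.4 ± 6.93 to 224 ± 30.5 CPM, Irf1 2.48-fold and Stat2 1.65-fold. Stat6, the factor of IL-4 signalling, fell 1.50-fold and Stat5a 1.96-fold. Ifnb1, Il10 and Il12b are not among the listed genes. In the myeloid lineage list of 25 genes, 7 were higher and 11 lower (median -0.15). Mef2d, a MADS-box factor, read 265, 269 and 285 CPM in the control libraries and 137, 116 and 136 CPM in the LPS libraries, a 2.11-fold fall. Mef2c fell 2.95-fold and Id2 2.52-fold, while Ets2 rose 4.58-fold and Cebpd 3.17-fold. Spi1 (PU.1) did not pass the test, with a log2 fold change of -0.09 (SE 0.07).

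Among secreted products, acute-phase proteins, chemokines and interleukins had high medians and growth factors a low one. Of 25 chemokines 17 were in the table and 14 tested, with 11 higher and 2 lower (median 3.31). Of 23 acute-phase and antimicrobial genes 16 were in the table and 15 tested, with 14 higher and 0 lower (median 3.92). Ccl3, a chemokine for monocytes, read 102, 71.0 and 91.9 CPM in the control libraries and 987, 1208 and 1226 CPM in the LPS libraries, a 12.9-fold rise. Ccl2 rose 14.4-fold to 67.6 ± 17.5 CPM, whereas platelet factor 4, Pf4, fell 2.02-fold. Haptoglobin, Hp, which binds free haemoglobin, rose from 1.56, 1.41 and 1.14 CPM in control libraries to 301, 346 and 378 in LPS libraries, a 249-fold change. Lysozyme, Lyz2, rose 1.23-fold to 9265 ± 369.5 CPM. Interleukins and colony-stimulating factors split by gene: 12 of 21 were in the table and tested, 7 were higher and 4 lower, with a median of 3.1, or 2.33 with genes absent from controls set at their lower bound. Il1a read 48.8, 40.2 and 50.8 CPM in the control libraries and 914, 956 and 957 CPM in the LPS libraries, a 20.2-fold rise, and Ebi3 and Il27, the subunits of interleukin-27, rose 31.2-fold and 31.5-fold. Il23a rose to 3.34 ± 0.332 CPM. Il15 fell 2.26-fold, Osm 1.83-fold and the macrophage growth factor Csf1 1.58-fold, from 825 ± 53.2 to 523 ± 33.6 CPM. Of 25 growth and trophic factors 13 were in the table and 11 tested, and 2 were higher and 7 lower (median -0.61). Gas6, a ligand for uptake of dying cells, fell 2.65-fold, Igf1 1.98-fold and Vegfa 1.77-fold, while the stress cytokine Gdf15 rose 3.45-fold.

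Receptors changed in both directions. Cytokine receptors had 11 of 32 higher and 15 lower (median -0.01). The TNF receptor Tnfrsf1b read 421, 442 and 444 CPM in the control libraries and 1442, 1728 and 1691 CPM in the LPS libraries, a 3.72-fold rise, and the death receptor Fas rose from 0.113 ± 0.0683 to 22.9 ± 2.27 CPM. Among the lowered receptors, the IL-6 receptor Il6ra fell 2.64-fold, its signalling partner Il6st (gp130) 2.42-fold and the IL-10 receptor Il10ra 2.37-fold. Il10ra read 133, 137 and 128 CPM in control libraries and 55.1, 63.1 and 49.6 after LPS, with no overlap. Of 27 chemotactic and purinergic receptors, 11 were higher and 10 lower (median 0.18). Gpr84, a receptor for medium-chain fatty acids, rose 68.1-fold and the leukotriene receptor Ltb4r1 35.8-fold. Cxcr4, the receptor of Cxcl12, fell 10.8-fold, Ccr1, a receptor of Ccl3, 8.50-fold and the sphingosine-phosphate receptor S1pr1 5.60-fold. Ccr1 went from 15.7 ± 1.53 to 1.88 ± 0.696 CPM, while its ligand Ccl3 rose.

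Inhibitory and co-stimulatory receptors, with adhesion molecules, gave similarly mixed counts. In the Fc, paired and co-stimulatory list 14 of 33 were higher and 13 lower (median 0.06). Pilra, an inhibitory paired receptor, read 26.8, 25.8 and 19.5 CPM in the control libraries and 433, 542 and 499.6 CPM in the LPS libraries, a 20.5-fold rise, and its activating counterpart Pilrb1 rose 21.0-fold. The co-stimulatory ligand Cd86 fell 2.72-fold and Cd83 3.62-fold. Trem2, a lipid sensor of microglia, read 337, 329.9 and 338 CPM in the control libraries and 137, 144 and 157 CPM in the LPS libraries, a 2.29-fold fall. Of 23 integrins and adhesion molecules 7 were higher and 11 lower (median -0.31). Icam1 rose 2.39-fold and Itgb7 2.39-fold, while Itgax (CD11c) fell 5.36-fold from 875 ± 58.0 to 163 ± 4.23 CPM and Alcam 3.42-fold. MHC class II presentation had no higher and 3 lower of 9 tested, and 6 were not called (median -0.11). The share called, 33.3%, compares with 56.1% of all tested genes. H2-Aa, H2-Ab1 and H2-Eb1 are not among the listed genes, and their activator Ciita had no count in any of the 6 libraries. Rfxank, a subunit of the factor that drives class II genes, fell 2.37-fold and the protease Ctss 2.00-fold.

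Enzymes that use arginine moved apart. Nos2, inducible nitric oxide synthase, read 64.9, 94.6 and 71.4 CPM in the control libraries and 479.5, 727 and 718 CPM in the LPS libraries, so the LPS libraries varied among themselves but all lay above controls. Its competitor Arg1, arginase, read 238, 359 and 241 CPM in control libraries and 0.318, 0.138 and 0.211 in LPS libraries. Those Arg1 values are close to the floor, and the fall was 1171-fold. Ass1, which rebuilds arginine from citrulline, rose 2.89-fold and the arginine transporter Slc7a2 2.05-fold. In polyamine synthesis, Odc1 rose 2.48-fold and Sms 2.18-fold, whereas Sat1, the enzyme of polyamine breakdown, fell 2.14-fold. Over the list, 12 of 18 were higher and 3 lower (median 0.4).

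Acod1, which diverts aconitate to itaconate, was the outlying member of the TCA list, in which 15 of 30 were higher and 7 lower and only Acod1 and Me1 rose more than 2-fold (median 0.22). It read 18.3, 22.7 and 17.8 CPM in the control libraries and 3189.7, 3519 and 3371 CPM in the LPS libraries. Neighbouring steps differed: malate dehydrogenase Mdh2 rose 1.99-fold and Idh3a, the NAD-linked isocitrate dehydrogenase, 1.96-fold. Idh2, the NADP-linked enzyme, fell 1.74-fold and Ogdh 1.44-fold. Acly, which makes citrate carbon available to lipid synthesis, rose 1.87-fold. Of 74 nuclear-encoded respiratory chain subunits 41 were higher and 7 lower, none by more than 2-fold (median 0.25). The 10 mitochondrially encoded transcripts had 1 higher and 5 lower (median -0.39). Among them mt-Cytb read 681, 433 and 434 CPM in the control libraries and 254, 245 and 220.0 CPM in the LPS libraries, a 2.15-fold fall, while the share of all counts in mitochondrially encoded genes was 0.401% to 0.503% in controls and 0.359% to 0.405% in LPS cells.

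Subunits of the superoxide-producing oxidase did not all move the same way. Cybb read 694, 662 and 679 CPM in the control libraries and 3397, 2681 and 2718 CPM in the LPS libraries, a 4.32-fold rise, and Ncf1 rose 1.83-fold. Its membrane partner Cyba fell 1.16-fold (adjusted p = 0.0108 in edgeR). The Cyba call was lost without control library 3 (log2 fold change -0.20, adjusted p = 0.0509) and with all 12 cell libraries in the fit (adjusted p = 0.113). G6pdx and Pgd, which supply NADPH, rose 1.83-fold and 1.62-fold. Over the 14 genes 7 were higher and 4 lower (median 0.43). In prostanoid synthesis the terminal enzyme Ptges rose 5.92-fold, from 4.38 ± 1.13 to 25.8 ± 0.781 CPM. The inducible cyclo-oxygenase Ptgs2 read 14.7, 25.3 and 19.1 CPM in the control libraries and 26.1, 27.3 and 30.1 CPM in the LPS libraries, a 1.41-fold change (edgeR adjusted p = 0.0131). Without control library 1 its log2 fold change was 0.32 (adjusted p = 0.0648) and without control library 3 it was 0.47 (adjusted p = 0.0515). The constitutive enzyme Ptgs1 fell 2.39-fold and Alox5ap, needed for leukotrienes, 1.85-fold. Ptgr1, which inactivates leukotriene B4, rose 5.22-fold. Of 18 eicosanoid enzymes 9 were higher and 7 lower (median 0.12).

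**Figure D3:**
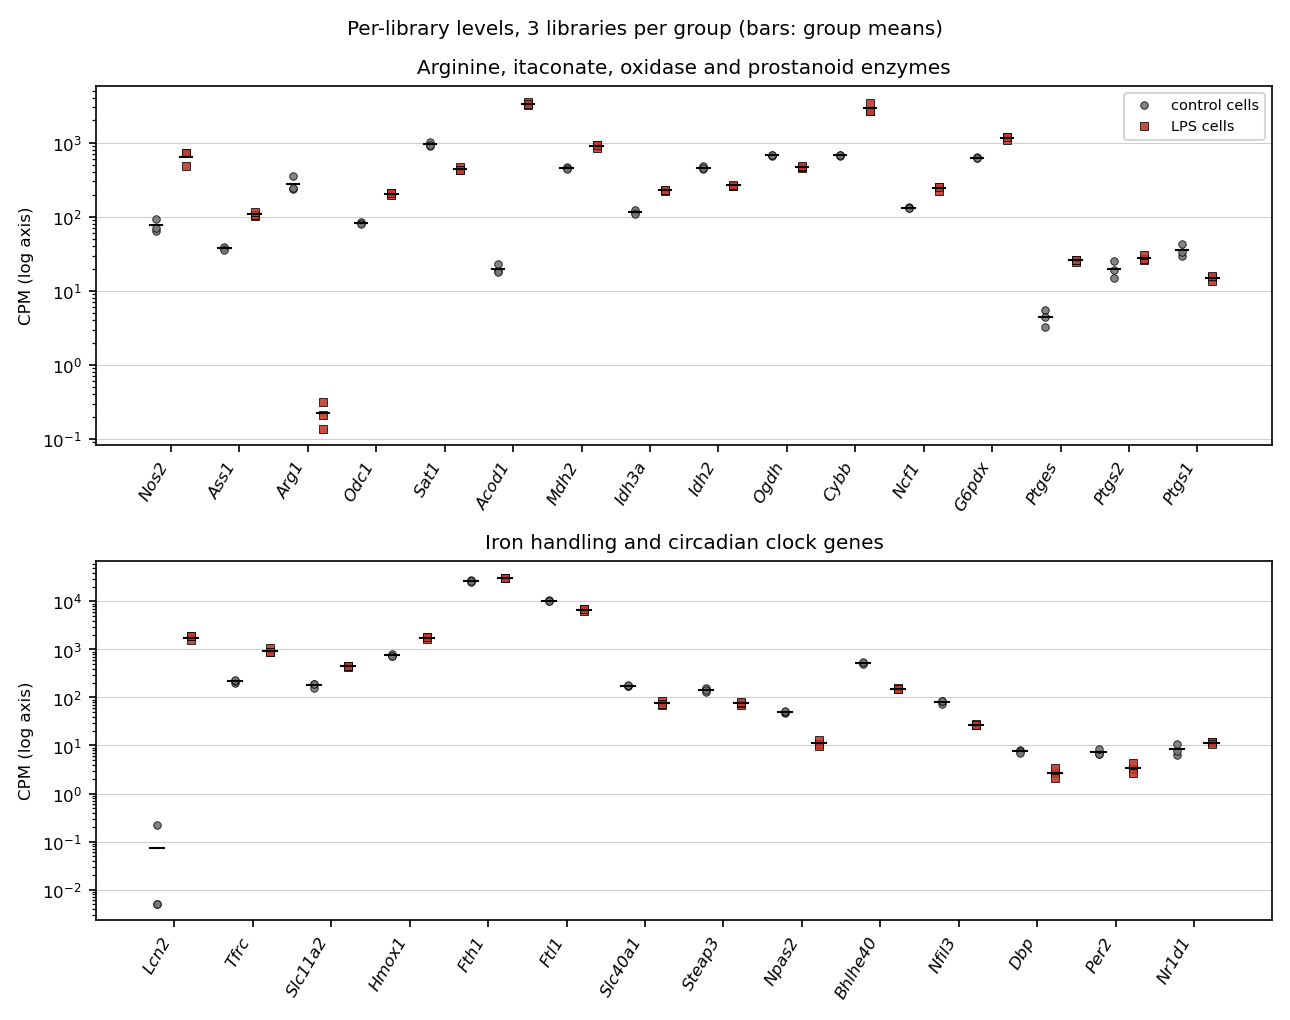
Per-library CPM on a log axis for arginine, itaconate, oxidase and prostanoid enzymes (top) and iron-handling and circadian genes (bottom), 3 control (circles) and 3 LPS libraries (squares), with bars at group means; values of 0 are drawn at 0.005. Nos2, Acod1, Cybb and Tfrc lie above controls in every LPS library, and Arg1, Slc40a1, Npas2 and Bhlhe40 below.

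Of 21 genes of iron and heme handling 8 were higher and 6 lower (median 0.05), where 28.6% and 27.5% of all tested genes were. The list as a whole thus showed little shift, and the genes below are single members of it. The transferrin receptor Tfrc read 204, 222 and 234 CPM in the control libraries and 1067, 873 and 888 CPM in the LPS libraries, a 4.28-fold rise. Slc11a2, the ferrous iron importer, rose 2.54-fold. The exporter Slc40a1 (ferroportin) read 171, 173 and 186 CPM in the control libraries and 85.2, 71.3 and 73.8 CPM in the LPS libraries, a 2.30-fold fall. Ferritin chains diverged, with Fth1 1.18-fold higher and the light chain Ftl1 1.52-fold lower. Lcn2, which binds bacterial siderophores, had 0, 7 and 0 counts in the control libraries and 1558, 1897 and 1867 CPM after LPS. In heme metabolism, Alas1, the first enzyme of synthesis, rose 2.75-fold and Hmox1, which degrades heme, 2.30-fold.

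Of 21 matrix proteases and inhibitors 9 were higher and 8 lower (median -0.15). The gelatinase Mmp9 read 8.89, 7.85 and 7.99 CPM in the control libraries and 70.0, 82.8 and 83.4 CPM in the LPS libraries, a 9.55-fold rise. The elastase Mmp12 fell 2.31-fold, urokinase, Plau, 4.13-fold and the inhibitor Timp2 2.32-fold. In the inflammasome and cell death list 14 of 30 were higher and 6 lower (median 0.27). Il1b, the substrate of the inflammasome, read 11.0, 10.1 and 9.92 CPM in the control libraries and 500.2, 708 and 626 CPM in the LPS libraries, and the sensor Nlrc4 rose 4.88-fold. The survival factor Mcl1 fell 1.86-fold and the death activator Bbc3 (PUMA) 1.96-fold. Of 24 amino acid and glucose transporters 11 were higher and 8 lower (median 0.2). The cystine importer Slc7a11 read 31.9, 28.8 and 46.3 CPM in the control libraries and 275, 234 and 249 CPM in the LPS libraries, a 7.08-fold rise, and the lysosomal hexose transporter Slc2a6 rose 4.35-fold. Slc38a2, a neutral amino acid transporter, fell 2.48-fold from 941 ± 70.7 to 379 ± 45.8 CPM.

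Circadian clock genes were mostly lower: 12 of 17 fell and 1 rose, with a median of -0.63. The clock activator Npas2 read 48.4, 49.8 and 51.4 CPM in the control libraries and 10.6, 12.9 and 9.95 CPM in the LPS libraries, a 4.48-fold fall. Bhlhe40, a repressor that is also an immune regulator, went from 535, 493 and 546 CPM in control libraries to 154, 152 and 152 in LPS libraries. Nfil3 fell 2.96-fold, Dbp 2.75-fold and Per2 2.15-fold. Of 30 stress-response genes 16 were higher and 7 lower (median 0.24): the endoplasmic reticulum chaperone gene Manf rose 2.26-fold, and Ppp1r15a, which ends translational arrest, fell 3.23-fold and the sensor Atf6 2.24-fold. Cyclin E1, Ccne1, rose 3.14-fold and cyclin D1, Ccnd1, 2.70-fold, within a list of which 18 of 28 were higher and 4 lower (median 0.43). The 83 ribosomal protein genes had 14 higher and 21 lower, none beyond 2-fold, with a median of 0; the share called, 42.2%, compares with 56.1% of all genes.

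Microglial and macrophage identity genes gave 5 higher and 5 lower of 12 tested. Csf1r rose 1.66-fold and Tmem119, a marker of resident microglia, 2.28-fold, from 11.7 ± 2.15 to 26.7 ± 4.09 CPM. Aif1 (Iba1) read 9.70, 9.77 and 9.34 CPM in the control libraries and 13.6, 14.1 and 14.9 CPM in the LPS libraries, a 1.48-fold rise. The lysosomal marker Cd68 fell 1.91-fold and the signalling adaptor Tyrobp 1.77-fold.

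Direct contrasts asked where LPS cells stood apart from cells given IL-10 or TGF-β. In a fit of all 12 cell libraries, 53.3% of 12148 tested genes differed between LPS and IL-10 cells, with 3279 higher and 3190 lower, and 57.1% between LPS and TGF-β cells, with 3560 higher and 3379 lower. The same LPS libraries enter each contrast. On the 12-library CPM scale Nfkbia was at 30.4 ± 1.64 in control cells, 446 ± 31.4 in LPS cells, 35.7 ± 0.911 in IL-10 cells and 45.2 ± 4.30 in TGF-β cells. Acod1 was at 18.8 ± 2.47, 3229.7 ± 196, 36.0 ± 3.63 and 10.5 ± 1.84 CPM in the same order. Nos2 read 73.9 ± 14.6, 617 ± 141, 238 ± 51.8 and 10.5 ± 5.61 CPM, so LPS cells exceeded IL-10 cells 2.59-fold (edgeR adjusted p = 0.00963) and TGF-β cells 58.3-fold (adjusted p = 3.72e-06). Socs3 was higher in IL-10 cells than in LPS cells, at 237 ± 13.1 against 52.8 ± 5.64 CPM (adjusted p = 6.72e-12). Spp1 was lowest in LPS cells, at 5439 ± 257 CPM. It read 48689.5 ± 5344 CPM after IL-10 and 26418 ± 2459.7 after TGF-β (edgeR adjusted p against LPS cells = 1.27e-15 and 4.17e-14). Against control cells, which lay below the IL-10 and TGF-β cells, the log2 fold change of Spp1 in LPS cells was -0.97. Of the 17 circadian genes 12 were lower and 1 higher in LPS than in IL-10 cells, and 11 lower and 1 higher than in TGF-β cells. Jun and Tsc22d3 were lower in LPS than in IL-10 cells, 2.61-fold and 8.54-fold. Among the AP-1 and immediate-early genes, 5 of 24 were higher and 15 lower in LPS than in IL-10 cells, and 10 higher and 8 lower than in TGF-β cells; a difference between those contrasts was not tested.

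**Figure D4:**
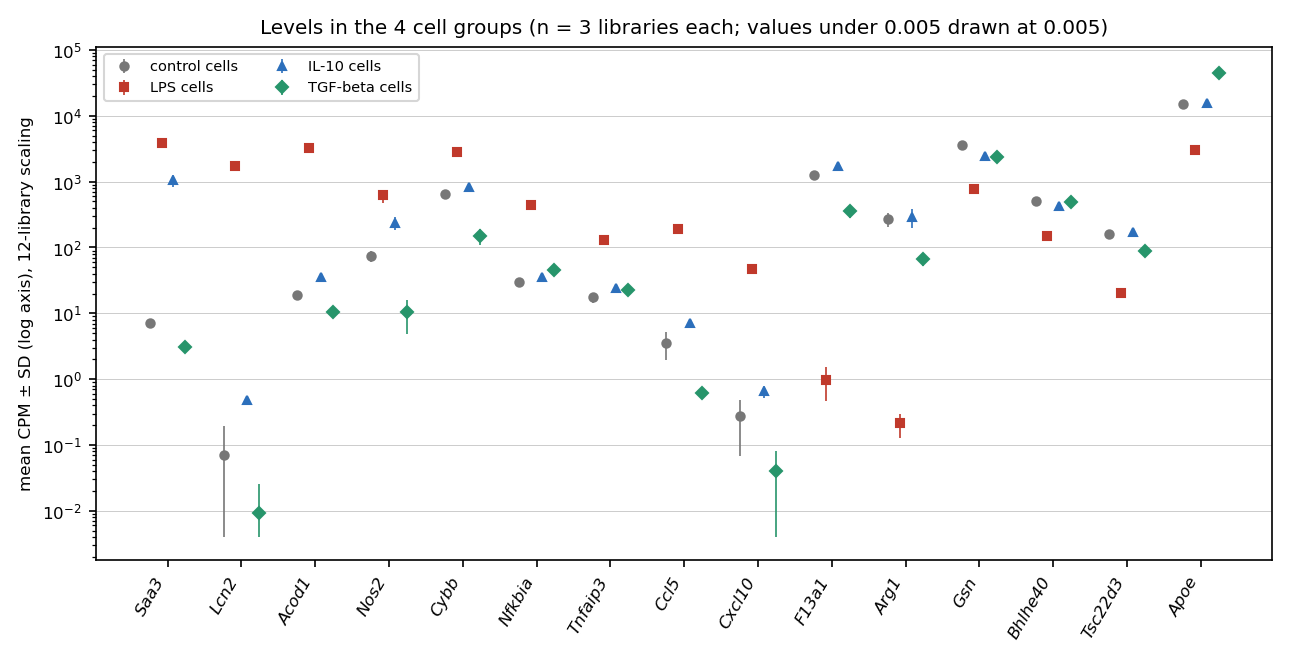
Mean CPM ± SD (log axis, scaled over 12 libraries, n = 3 libraries each) of named genes in control, LPS, IL-10 and TGF-β cells; values under 0.005 are drawn at 0.005. Lcn2, Acod1, Nfkbia, Saa3 and Nos2 are highest in LPS cells among the 4 groups, and Arg1, F13a1 and Bhlhe40 are lowest in LPS cells.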

How the data were processed

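Total RNA of the cells was made into SMART-Seq v4 and Nextera XT libraries, per the labels' protocols. The authors deposited raw counts per gene, 1 table per treatment, with identical control columns in the cell tables. The submitters' processing notes name DESeq2, and a name for the aligner or the build is not given in the sources used here. Genes were filtered by filterByExpr, scaled by TMM and compared, unpaired, by the robust quasi-likelihood test of edgeR 4.0.16, with Benjamini-Hochberg adjusted p under 0.05 called over all genes tested, on 6 libraries for LPS against control and 12 for contrasts with IL-10 or TGF-β. CPM beside a test are TMM-scaled. Where a group had no count, folds stated as at least a value were bounded with 3 counts in each of its libraries. Fold classes and ranks used fitted values.

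Members and gene lists were chosen with earlier results of these data known. Named genes are the 15 largest rises and falls (no overlap, and at least 50 counts on average where higher), the 10 largest gains and losses in CPM, up to 5 called members per direction of each list, its highest member in CPM, genes at 0 in 1 group, and a fixed set; not all are printed, and some are not reported here. Names that are numbers (16) and repeated symbols (3) were tested and not named. Exon lengths, with all annotated exons of a gene merged, came from GENCODE M21 and promoters from RefSeq, by symbol. DESeq2 1.42.0, limma-voom (limma 3.58.1), RLE scaling, other filters, other libraries in the fit, a block by column number (added after seeing the data) and leaving out each library were tried as alternatives. The procedure was tested on simulated data, in R 4.3.3 and Python 3.11.15. Vesicle libraries were not used here.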

Additional observations from a re-analysis of the deposited data

How the results depend on the processing

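The counts of genes that differed stayed within 1.5 times of the reported ones under DESeq2, RLE scaling, quality-weighted limma-voom, the loosest filter (1 count), a minimum of 50 counts on average, another set of libraries in the fit, the loss of each library and a replicate block. Genes higher in LPS than control cells ranged from 3091 to 3619 and genes lower from 2956 to 3593. Of 188 genes named and tested, 184 kept their direction and their side of the threshold in each of the 13 settings that tested them (179 were tested in all 13), and 0 reversed; the others are Aldh1l1, Cyba, Ptgs2 and Slc1a2, and the cause of their lost calls was not tested. Leaving out 1 library moved the log2 fold change of genes near 0 in 1 group: that of Lcn2 went from 14.35 to 18.81 without control library 2, of Cxcl2 from 9.41 to 11.42 without control library 3, of Lbp from 4.39 to 5.38 and of Socs1 from 5.24 to 5.98 without control library 1, of Cxcl10 from 7.36 to 8.07 and of Camp from 6.51 to 8.51 without control library 2, and of Cd4 from -2.88 to -3.76 without LPS library 1. That of Slc1a2 went from 1.87 to 2.48 without control library 3. The test method also mattered for genes with no count in 1 group. Under quality-weighted limma-voom the log2 fold change of Il6 went from 7.55 to 5.35 and of Gbp5 from 8.98 to 6.75. That of Spic went from 11.19 to 8.97 and of Mcam from -9.15 to -7.16. In all, 16 of the 188 genes had a value that moved over 1.5 times in some setting. Count columns carry numbers 1 to 3 in every group, but no label ties a number to a culture or batch. Deviations of same-numbered LPS and control libraries from their group means correlated at -0.006 to 0.002 across genes. For LPS and TGF-β libraries the values were 0.174, 0.07 and 0.008 with the same number and -0.193 to 0.136 with different numbers. For LPS and IL-10 libraries they were 0.038, 0.051 and -0.002 with the same number and -0.112 to 0.067 with different numbers. With the number as a block, a fit chosen after seeing the data, 3360 genes were higher and 3258 lower in LPS than control cells, and no named gene changed its call. Genes under 3 counts in a library, 0.0712 to 0.111 CPM, could not be told from absent at this depth, and these limits cover counting error only.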

Other observations

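Among the 15 largest falls after LPS were Agt, Sphk1, Cxcr2 and Grb10. Agt, the precursor of angiotensin, read 61.3, 70.8 and 66.3 CPM in the control libraries and 1.89, 1.24 and 3.11 CPM in the LPS libraries, a 31.6-fold fall with no overlap. Sphk1, the kinase that makes sphingosine 1-phosphate, read 18.7, 16.7 and 17.6 CPM in the control libraries and 0.136, 0.241 and 0.0302 CPM in the LPS libraries, so that it and the receptor S1pr1 were both lower. Cxcr2, a chemokine receptor of neutrophils, fell from 18.9, 21.5 and 19.5 CPM in control libraries to 0.318, 0.482 and 0.332 in LPS libraries. In the 12-library fit Cxcr2 stood at 0.363 ± 0.0908 CPM in LPS cells, 17.3 ± 1.16 in IL-10 cells and 90.7 ± 10.8 in TGF-β cells. The signalling adaptor Grb10 fell 28.7-fold, from 6.09 ± 0.536 to 0.213 ± 0.127 CPM.

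Among serine synthesis and folate genes of the stress-response list, Psat1 read 282, 292 and 286 CPM in the control libraries and 457, 529 and 506 CPM in the LPS libraries, a 1.74-fold rise. Mthfd2, a mitochondrial folate enzyme, rose 1.73-fold, and Phgdh, the first enzyme of serine synthesis, 1.41-fold from 1326 ± 52.9 to 1876 ± 183 CPM. Each had groups that did not overlap, as had 62.4% of all tested genes. In the same list the factor Xbp1 fell 1.67-fold. The nucleoside transporter Slc29a1 fell 1.48-fold and the taurine transporter Slc6a6 1.66-fold.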
